A study of Mus musculus with 40 samples.

Results

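The nuclear-encoded subunits of the mitochondrial respiratory chain and of the ATP synthase were followed in 20 immortalised brown preadipocyte lines before and after adipocyte differentiation. Members were the gene symbols present in the files of both stages whose names follow the patterns of complex I (Ndufa, Ndufb, Ndufc, Ndufs and Ndufv), complex II (Sdha to Sdhd), complex III (Uqcr), complex IV (Cox4 to Cox8) and ATP synthase (Atp5) subunits. Of 29912 shared symbols, 84 matched, and 82 were kept after Cox7a1 and Cox8b, muscle and brown fat isoforms of complex IV, had been set aside. They comprised 36 genes of complex I, 4 of complex II, 8 of complex III, 17 of complex IV and 17 of the ATP synthase, which is also called complex V. The rule reads names and no measured value, although it was written with earlier results of these data known.

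All 20 lines (A2 to D6) were derived from brown adipose tissue of C57BL/6 mice and were used at passages 6 to 12. Each line gave 1 library as undifferentiated preadipocytes and 1 library at day 8 after induction with IBMX, dexamethasone, indomethacin, T3 and insulin, with T3 and insulin kept in the medium. The labels name no genotype other than the strain and no untreated culture kept for 8 days. Poly(A)-selected RNA was sequenced, and the measure is the number of reads per gene. Gene counts summed to between 19461042 and 27971548 per undifferentiated library and between 27058810 and 42907513 per day 8 library. Levels are given as CPM, counts scaled to a common library total, and errors as SD over the 20 lines of a stage unless stated otherwise.

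The respiratory chain passes electrons from NADH (complex I) and succinate (complex II) through coenzyme Q to complex III, then through cytochrome c to complex IV, where oxygen is reduced. Complexes I, III and IV pump protons, and the ATP synthase uses the resulting gradient. Complex II is encoded in the nucleus alone, whereas the other complexes join nuclear subunits to subunits made from mitochondrial DNA. Brown adipocytes are packed with mitochondria and are known for an active respiratory chain next to little ATP synthase, with uncoupling protein 1 (Ucp1) letting protons return without ATP synthesis.

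The labels were first set against marker genes. The summed level of 24 adipocyte genes such as Adipoq and Plin1 lay between 184 and 726 CPM in undifferentiated libraries and between 1167 and 22411 CPM at day 8, with no overlap. The lowest day 8 value was that of line C6, followed by line D5 with 5080.0 CPM. These lines held the most preadipocyte marker RNA at day 8, 2588 CPM in C6 and 1993 CPM in D5 summed over 7 genes, against a median of 780.3 CPM. The median sum was 663 CPM before induction, and 4 of the 7 genes were called higher at day 8 and 2 lower. The sum is therefore no measure of cells that stayed undifferentiated. Ucp1, the defining gene of brown adipocytes, was present at 0.0187 ± 0.0284 CPM before induction and had a median of 0.745 CPM at day 8, with 51.4 CPM in line B6, 27 CPM in line B3 and no count in line C6. Results that rest on C6, D5, B6 or B3 are therefore also given without them.

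The files of the stages were not made alike: tallies of unaligned and low-quality reads are 0 in all 20 day 8 files and above 0 in the others, and reads aligned to several places made up 16.8% ± 0.456 of tallied reads before and 12.8% ± 1.02 at day 8. Stage and counting cannot be told apart, and subunit genes with processed pseudogenes (retrocopies of the spliced transcript elsewhere in the genome) are genes whose reads can align to several places. The share of a gene's transcript found in annotated processed pseudogenes was therefore computed from stretches of 31 bases, and members with 10% or more are named as such. In bulk RNA, fewer cells of a type and less RNA per cell cannot be told apart.

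Sequences are shown for 7 of the members described below, so that the regulatory letters upstream of each can be compared. RefSeq promoter windows (build GRCm38.p6, 250 bases before to 50 after the transcript start) were matched for 67 of the 82 members. Both strands were searched for the letters of 5 motifs of factors known to act on respiratory genes. The palindromic NRF1 motif, the letters in capitals in the window of Atp5g2, was present in 5 of 67 members (7.46%) and in 1.07% of 27025 genes with a window. The YY1 motif AANATGGCG was present in 11 members (16.4%) and in 2.76% of all genes, and its central letters can coincide with a translation start. The half-site of oestrogen-related receptors (ERR), TNAAGGTCA, was present in 3 members (4.48%) and in 1.43% of all genes. The GABP motif CCGGAAGTG was present in 2 members (2.99%) and in 2.25% of all genes, and a PPAR direct repeat in 0 members and in 0.115% of all genes. No printed window holds more than 1 of these motifs, and only that of Atp5g1 holds none. The windows of Ndufv1, Sdha, Cox5a, Cox5b and Ndufb7, also described below, hold none and are not printed. The printed windows therefore do not represent the members. Windows are printed 5′ to 3′ on the strand of the gene, and capitals mark the motif that was found.
Atp5g1, chr11:96075582-96075881, minus strand: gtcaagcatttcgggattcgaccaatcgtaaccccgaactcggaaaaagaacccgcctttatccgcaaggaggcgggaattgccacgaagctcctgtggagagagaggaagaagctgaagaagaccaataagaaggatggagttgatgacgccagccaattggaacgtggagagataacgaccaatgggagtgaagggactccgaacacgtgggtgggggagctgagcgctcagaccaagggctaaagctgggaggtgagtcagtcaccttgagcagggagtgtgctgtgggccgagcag
Atp5g2, chr15:102670998-102671297, minus strand: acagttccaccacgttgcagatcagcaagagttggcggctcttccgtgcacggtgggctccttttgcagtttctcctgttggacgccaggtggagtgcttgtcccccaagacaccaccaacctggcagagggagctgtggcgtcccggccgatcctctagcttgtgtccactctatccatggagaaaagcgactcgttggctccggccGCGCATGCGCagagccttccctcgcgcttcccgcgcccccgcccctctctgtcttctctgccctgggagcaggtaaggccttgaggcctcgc
Atp5g3, chr2:73911277-73911576, minus strand: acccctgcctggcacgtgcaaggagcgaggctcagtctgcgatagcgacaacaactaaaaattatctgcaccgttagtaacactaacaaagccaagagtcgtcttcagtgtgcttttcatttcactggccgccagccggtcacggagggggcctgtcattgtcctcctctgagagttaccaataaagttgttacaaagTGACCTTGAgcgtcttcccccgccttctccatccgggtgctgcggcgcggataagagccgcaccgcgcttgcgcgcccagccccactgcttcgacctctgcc
Atp5b, chr10:128083057-128083356, plus strand: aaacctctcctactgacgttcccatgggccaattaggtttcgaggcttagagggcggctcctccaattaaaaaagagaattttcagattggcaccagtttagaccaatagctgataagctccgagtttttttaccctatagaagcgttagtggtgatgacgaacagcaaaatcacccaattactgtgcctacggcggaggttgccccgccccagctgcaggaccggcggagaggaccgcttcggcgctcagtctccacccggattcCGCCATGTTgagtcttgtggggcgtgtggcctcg
Uqcrc1, chr9:108936398-108936697, plus strand: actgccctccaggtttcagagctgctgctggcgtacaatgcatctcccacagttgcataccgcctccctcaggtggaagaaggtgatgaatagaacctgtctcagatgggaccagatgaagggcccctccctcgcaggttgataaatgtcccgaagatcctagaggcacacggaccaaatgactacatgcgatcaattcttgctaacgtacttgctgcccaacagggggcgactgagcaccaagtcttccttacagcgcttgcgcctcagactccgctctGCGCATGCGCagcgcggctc
Cox6a1, chr5:115348909-115349208, minus strand: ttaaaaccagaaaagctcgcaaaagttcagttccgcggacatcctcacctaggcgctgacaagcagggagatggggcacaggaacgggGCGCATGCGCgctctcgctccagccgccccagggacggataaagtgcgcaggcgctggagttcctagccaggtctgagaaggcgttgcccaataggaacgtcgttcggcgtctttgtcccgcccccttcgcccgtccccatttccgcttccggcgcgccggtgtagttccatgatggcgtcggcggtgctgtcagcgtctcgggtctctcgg
Sdhd, chr9:50603800-50604099, minus strand: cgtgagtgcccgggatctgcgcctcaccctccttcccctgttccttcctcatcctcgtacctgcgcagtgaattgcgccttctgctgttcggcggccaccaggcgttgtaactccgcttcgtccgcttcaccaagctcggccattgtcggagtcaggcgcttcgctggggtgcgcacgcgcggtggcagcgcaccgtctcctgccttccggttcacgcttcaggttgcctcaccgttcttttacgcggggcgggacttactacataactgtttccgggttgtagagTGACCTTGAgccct
The isoforms Atp5g1, Atp5g2 and Atp5g3 are separate genes for the same c subunit of the ATP synthase ring, and their windows carry no motif, an NRF1 motif and an ERR half-site, respectively. Cox6a1 and Uqcrc1 hold the NRF1 letters, Sdhd the ERR half-site and Atp5b the YY1 letters. A match is a description of letters and no evidence of binding.

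Across the whole group, subunit RNA was higher at day 8. The members took 0.914% ± 0.0753 of all gene counts before induction and 1.81% ± 0.506 at day 8. Of the 82 members, 79 passed the filter on low counts and all 79 were called higher at day 8 (edgeR, adjusted p under 0.05), against 43.1% of 14081 tested genes called higher and 39% called lower. Their median log2 fold change was 1.16, and that of all tested genes 0.04. Cox4i2, Cox6a2 and Cox6b2 passed the filter only through the day 8 libraries. Of the 76 members that also passed within the undifferentiated libraries, 76 were called higher, with a median of 1.12, against 40.8% of 11940 such genes. Cox4nb and Cox8c had no count in any library, and Cox7b2 had 2 counts before induction and none at day 8.

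In 38 of these 76 members the level was higher at day 8 in every line, which held for 22.2% of the 11940 genes, and in 17 the 20 day 8 libraries lay above all 20 undifferentiated libraries, which held for 10.7%. The medians by complex were close, with log2 1.18 for complex I, 1.21 for complex II, 1.21 for complex III, 1.03 for complex IV and 0.96 for the ATP synthase. Differences between complexes were not tested. A log2 fold change above 2 was seen in 12 of the 76, against 7.6% of those genes, and 10 of these 12 have 10% or more of their sequence in processed pseudogenes, compared with 14 of the 64 others. The 52 members under 10% had a median of 1.07. The 24 others had a median of 1.46. Over genes of any function the median was 0.66 for 794 genes at 10% or more, of 12635 with a value, and 0.01 for the rest.

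**Figure D1:**
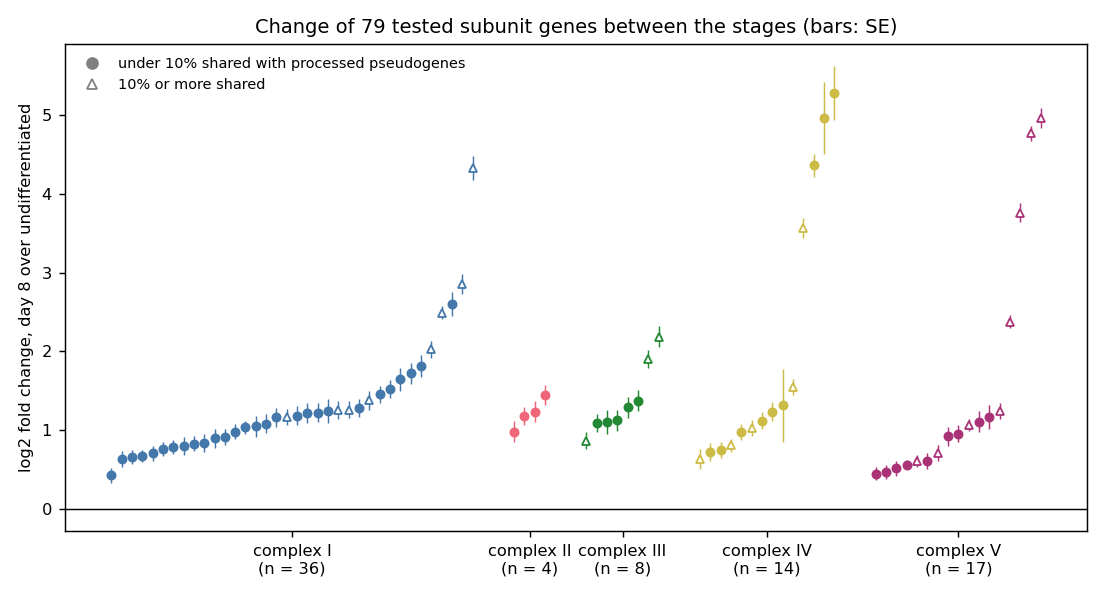
Log2 fold change of 79 tested members between day 8 and undifferentiated libraries (20 lines each), ordered by size within each complex, with SE as bars. All points lie above 0, most between 0.43 and 2, and open triangles mark members with 10% or more of their sequence in processed pseudogenes, which hold 10 of the 14 values above 2. Cox4i2, Cox6a2 and Cox6b2 are included although they passed the filter only through day 8.

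Complex I, the NADH dehydrogenase, had all 36 members called higher, with log2 fold changes from 0.43 (Ndufb7) to 4.33 (Ndufb4). Ndufs1, the largest subunit of the electron-accepting arm, ranged from 116 to 193 CPM with a median of 141 before induction and from 127 to 655 CPM with a median of 296 at day 8. The lowest day 8 library was C6 and the highest B6, and the stages overlapped. The log2 fold change was 1.05 (SE 0.14, adjusted p = 4.19e-09), with a higher level in 18 of 20 lines. Ndufv1, which binds NADH through its flavin, ranged from 93.4 to 152 CPM (median 129) before and from 138 to 698 CPM (median 423) at day 8. It was higher in every line, and only the day 8 value of C6 lay within the earlier range (log2 1.72, SE 0.13, adjusted p = 3.66e-15).

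The smallest change in complex I was that of Ndufb7, an accessory subunit of the membrane arm. It ranged from 55 to 99.7 CPM (median 87.5) before and from 51.8 to 146 CPM (median 112) at day 8. Its stages overlapped widely, and lines A3 and C6 were lower at day 8 (log2 0.43, SE 0.10, adjusted p = 0.000112). Ndufa8, another accessory subunit, went from 85.7 ± 10.9 to 133 ± 37.3 CPM (log2 0.64, SE 0.10, adjusted p = 4.6e-07). At the other end, Ndufb4, an accessory subunit with 38.3% of its sequence in processed pseudogenes, ranged from 0.763 to 2.12 CPM (median 1.48) before and from 13.5 to 44.8 CPM (median 31.1) at day 8. The groups did not overlap, even with C6 (log2 4.33, SE 0.15, adjusted p = 8.03e-27). Ndufs3, a core subunit with 49.3% shared sequence, went from 21.9 ± 2.01 to 158 ± 53.4 CPM without overlap (log2 2.85, SE 0.13, adjusted p = 9.13e-23). The part that the counting had in such values was not tested. Among the 28 members of complex I under 10% shared sequence, all 28 were called higher with a median of 1.05, up to 2.60 for Ndufv3, an accessory flavoprotein subunit that went from 33.6 ± 3.42 to 204 ± 78.3 CPM.

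Complex II, the succinate dehydrogenase, showed the narrowest range, with 4 of 4 members called higher by log2 0.98 to 1.45 and all 4 under 10% shared sequence. Sdha, the flavoprotein that oxidises succinate, ranged from 284 to 384 CPM (median 346) before and from 268 to 1418 CPM (median 854) at day 8. The day 8 libraries spread from C6, below every undifferentiated library, to B6, and 19 of 20 lines were higher (log2 1.24, SE 0.14, adjusted p = 9.31e-11). Sdhb, its iron-sulphur partner, went from 102 ± 12.1 to 278 ± 98.6 CPM (log2 1.45, SE 0.13, adjusted p = 2.43e-13). The membrane anchors followed, with log2 1.19 (SE 0.11, adjusted p = 1.76e-12) for Sdhc and 0.98 (SE 0.13, adjusted p = 6.4e-09) for Sdhd. In all 4 genes C6 was the 1 line with a lower level at day 8.

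All 8 members of complex III were called higher. The core proteins Uqcrc1 and Uqcrc2 and the Rieske iron-sulphur protein Uqcrfs1, which takes electrons from reduced coenzyme Q, changed by much the same amount. Uqcrc1 ranged from 209 to 295 CPM (median 245) before and from 193 to 985 CPM (median 551) at day 8. The stages overlapped through C6 and D5, and 19 of 20 lines were higher (log2 1.13, SE 0.13, adjusted p = 5.75e-10). The log2 fold change was 1.29 (SE 0.14, adjusted p = 2.52e-11) for Uqcrc2 and 1.11 (SE 0.15, adjusted p = 1.46e-08) for Uqcrfs1. The smallest value was that of the hinge protein Uqcrh (0.87, SE 0.11, adjusted p = 1.12e-09), and Uqcr10, a small accessory subunit, had 1.09 (SE 0.11, adjusted p = 9.35e-12). The largest values belonged to genes with shared sequence, Uqcrb with 1.91 (SE 0.11, 54.3% shared, adjusted p = 1.14e-18) and Uqcr11 with 2.19 (SE 0.13, 19.5% shared, adjusted p = 2.75e-18). Uqcr, an older name of Uqcr11, has an entry of its own in the files, with 966 counts before and 995 at day 8 over all lines, against 3641 and 22964 for Uqcr11, and the division of reads between these entries is uncertain.

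For complex IV, the cytochrome c oxidase, 14 of 17 members passed the filter and all 14 were called higher, 11 of them genes that passed within each stage. Cox4i1, the main form of subunit 4, ranged from 186 to 312 CPM (median 275) before and from 219 to 872 CPM (median 685) at day 8. Every line was higher, and the stages overlapped through C6 and D5 (log2 1.24, SE 0.12, adjusted p = 3.24e-12). Cox5a, which pairs with subunit 4 near the core, had the smallest change, from 125 ± 13.2 to 195 ± 72.2 CPM, and lines A3, C5, C6 and D5 were lower at day 8 (log2 0.64, SE 0.12, adjusted p = 1.15e-05). Cox5b, a zinc-binding subunit, ranged from 6.19 to 10.8 CPM (median 8.05) before and from 77.2 to 319 CPM (median 157) at day 8. The groups did not overlap (log2 4.36, SE 0.14, adjusted p = 9.65e-28). Cox5b has no sequence in annotated processed pseudogenes but shares 28.7% with other annotated genes, so its count is uncertain. Cox7c, a small membrane subunit with 14.3% in processed pseudogenes, went from 11.9 ± 2.04 to 141 ± 39.7 CPM (log2 3.56, SE 0.12, adjusted p = 1.18e-26). Cox7b, another small subunit, had log2 0.72 (SE 0.11, adjusted p = 1.43e-07).

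Several complex IV subunits exist as a broad form and a form known from particular tissues. Of the rarer forms Cox6a2, Cox4i2 and Cox6b2 passed the filter only through the day 8 libraries, where they were higher, so their stage differences are given as values with no test. Cox6a2, the heart and skeletal muscle form of subunit 6a, ranged from 0.0369 to 1.74 CPM (median 0.441) before and from 5.3 to 53.4 CPM (median 19.4) at day 8. The highest undifferentiated library lay below the lowest day 8 library, and line C6 stood at 8.05 CPM at day 8 (fitted log2 5.28). Its broad counterpart Cox6a1 went from 174 ± 16.6 to 356 ± 100.4 CPM (log2 1.03, SE 0.10, adjusted p = 3.55e-12). Of 12 skeletal and heart muscle genes, 4 passed the filter and 2 were called higher, against 43.1% of all tested genes. Tnnc2 went from 1.47 ± 0.326 to 3.83 ± 1.6 CPM. Des, the other, had 267 counts over all lines before induction, so its stage difference is given as values with no test. It went from 0.557 ± 0.489 to 28.9 ± 21.6 CPM. The summed muscle level was 3.43 to 30.8 CPM before and 20.6 to 112 CPM at day 8. Of the same list, Acta1 and Actn3 were not called. They reached 17.8 and 25.5 CPM at day 8, after up to 22.6 and 13.7 CPM before induction. Ckm, Myog and Myod1 did not exceed 0.0539, 0.115 and 0.0287 CPM in any day 8 library.

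Cox4i2, the form of subunit 4 known from lung and induced by low oxygen, was near the limit of detection before induction, from 0 to 0.224 CPM with a median of 0.041. At day 8 it ranged from 0.0544 to 5.28 CPM with a median of 1.75. Lines C6 and D5 were lower at day 8, B1 was highest, and a count of 3 corresponds to 0.107 to 0.154 CPM in undifferentiated libraries, so the fitted log2 fold change of 4.96 depends on how low counts are handled. Cox6b2, the testis form of subunit 6b, ranged from 0.0369 to 4.66 CPM (median 0.248) before and from 0.123 to 5.63 CPM (median 1.5) at day 8. At both stages line B5 was lowest and line C6 highest (fitted log2 1.32), whereas the broad form Cox6b1 went from 113 ± 11.7 to 222 ± 59.9 CPM. Cox7a2l, which is known to bind complexes III and IV together in supercomplexes rather than as a standard subunit, went from 73 ± 8.49 to 213 ± 64.1 CPM without overlap between stages (log2 1.54, SE 0.10, 21.4% shared, adjusted p = 3.36e-17). Cox7a2 had log2 0.76 (SE 0.10, adjusted p = 6.73e-09) and Cox8a 1.12 (SE 0.11, adjusted p = 3.55e-12). The testis forms Cox8c and Cox7b2 were at or near 0 as given above. Cox4nb carries the name pattern by the symbol alone: it is an older name of Emc8, a gene of the endoplasmic reticulum membrane complex, and had no count.

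The ATP synthase had 17 of 17 members called higher and the lowest median, and 9 of the 17 changed by less than log2 1. Atp5b, the catalytic β subunit, ranged from 1255 to 1779 CPM (median 1448) before and from 871 to 2863 CPM (median 2139) at day 8. The day 8 values spread to both sides of the earlier ones, with lines A3, C6 and D5 lower than before induction (log2 0.52, SE 0.09, adjusted p = 3.56e-06). Atp5a1, its α partner, went from 833 ± 103 to 1274 ± 366 CPM with 15 of 20 lines higher (log2 0.61, SE 0.10, adjusted p = 1.16e-06). Atp5j2, a subunit of the membrane part, had log2 0.47 (SE 0.09, adjusted p = 1.15e-05). Atp5l, subunit g of the membrane part, has 69.6% of its sequence in processed pseudogenes and ranged from 1.31 to 3.55 CPM before and from 39.9 to 105 CPM at day 8. The groups lay far apart (log2 4.96, SE 0.13, adjusted p = 1e-31). Atp5h, a stalk subunit with 46% shared sequence, went from 19.8 ± 3.66 to 269 ± 74.6 CPM (log2 3.76, SE 0.12, adjusted p = 8.19e-28). Under 10% shared sequence, 9 of 9 ATP synthase members were called higher with a median of 0.61, against 1.05 for complex I, 1.21 for complex II, 1.13 for complex III and 1.05 for complex IV. Atp5s and Atp5sl are named after the ATP synthase without being structural subunits, and had log2 1.11 (SE 0.13, adjusted p = 5.26e-10) and 1.17 (SE 0.15, adjusted p = 3.01e-09).

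The c subunit forms the rotating ring of the ATP synthase and has been described as limiting for its content in brown fat. Its genes, whose promoter windows are printed above, differed in their change. Atp5g3 ranged from 193 to 288 CPM (median 249) before and from 170.3 to 465 CPM (median 345) at day 8. Its stages overlapped and 17 of 20 lines were higher (log2 0.45, SE 0.08, adjusted p = 3.89e-06). Atp5g1, with 10.2% shared sequence, ranged from 15.6 to 29.7 CPM (median 24) before and from 89.6 to 183 CPM (median 118) at day 8, without overlap (log2 2.38, SE 0.09, adjusted p = 6.4e-26). Atp5g2, with 25% shared sequence, ranged from 3.12 to 7.42 CPM (median 4.67) before and from 103 to 167 CPM (median 125) at day 8. Its day 8 libraries were close together and far above all undifferentiated ones (log2 4.76, SE 0.09, adjusted p = 6.06e-36). The gene without shared sequence thus had the smallest of the 3 changes.

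Levels of different members were compared as mean CPM per kilobase of transcript, with the length taken from 1 GENCODE M21 transcript per gene. Atp5b stood highest at both stages, with 758 CPM per kb before and 1087 at day 8, and Cox4i1 was the highest subunit of complex IV, with 349 and 822 CPM per kb. The median member of complex I had 73.7 CPM per kb before and 155 at day 8. The corresponding medians were 103 and 259 for complex II, 84.4 and 225 for complex III, 139 and 279.9 for complex IV, and 131 and 281 for the ATP synthase. Before induction the values of genes with complex I names ran from 1.49 (Ndufb4) to 224 CPM per kb (Ndufa4). Whether each of these genes belongs to complex I was read from its name alone. Values within the ATP synthase, with the non-structural Atp5s and Atp5sl left aside, ran from 4.45 (Atp5l) to 758 (Atp5b). The lowest values are uncertain, because 38.3% of the sequence of Ndufb4 and 69.6% of that of Atp5l lie in processed pseudogenes. The part of the counting in these spreads was not tested. At day 8 the lowest complex I value was 30.1 (Ndufb4) and the highest 465 (Ndufb9). Among the c subunit genes, Atp5g3 had 344, Atp5g2 10.6 and Atp5g1 5.07 CPM per kb before, and 469.6, 288 and 26.4 CPM per kb at day 8. The order of Atp5g1 and Atp5g2 rests on the 1 transcript length taken for each. In CPM without length, Atp5g1 lay above Atp5g2 before induction, and their median log2 ratio at day 8 was -0.07. The effect of the choice of transcript was not tested.

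**Figure D2:**
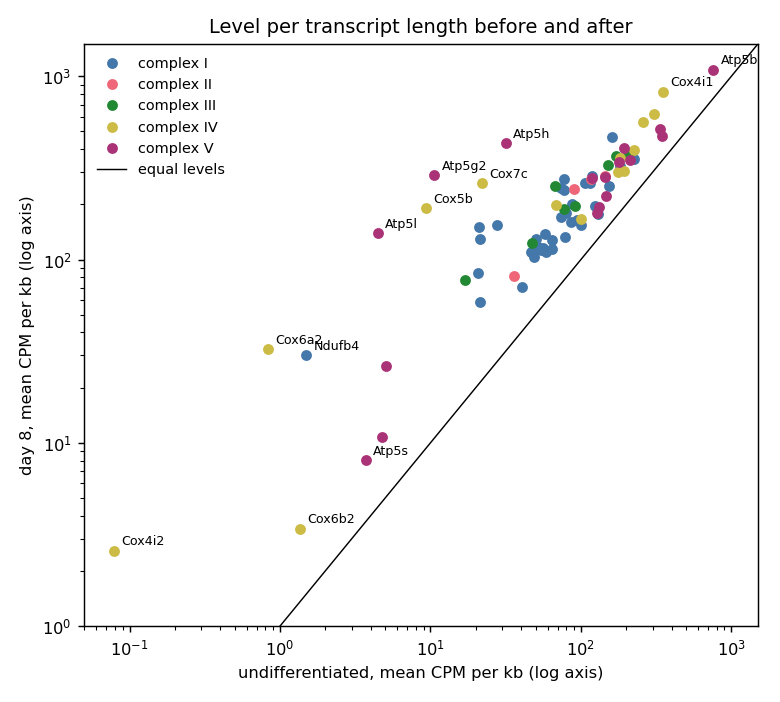
Mean level of each tested member per kilobase of transcript in 20 undifferentiated libraries (horizontal, log axis) and 20 day 8 libraries (vertical, log axis), coloured by complex, with the line of equal levels. Every point lies above the line, most within a narrow band, and Atp5l, Atp5g2, Cox5b, Cox7c, Atp5h, Ndufb4, Cox6a2 and Cox4i2 stand well above it.

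The lines differed widely in how much subunit RNA they gained. The median log2 difference over the 79 tested members, day 8 minus undifferentiated in the same line, ran from 0.010 in C6 to 2.02 in B6, with a median line at 1.16. In 15 lines all 79 members were higher at day 8. The exceptions were C6 with 40 of 79, D5 with 65, A3 with 71, C5 with 76 and C2 with 78. The share of counts on the members was narrow before induction, from 0.745% (D2) to 1.01% (A3), and wide at day 8, from 0.841% (C6) to 2.85% (B6). In C6 the share was 0.915% before, so it was lower at day 8. Line B6, highest at day 8, started from 0.815%, and D6 went from 0.769% to 2.45%. The coefficient of variation between lines had a median over the members of 13.4% before induction and 30.1% at day 8, and it was larger at day 8 in 74 of 79 members. Neither this count nor the counts of members higher in each line were set against all tested genes. Within a line the complexes had similar median differences, which in C6 lay between -0.18 (complex II) and 0.07 (complex I), and in B6 between 1.80 (ATP synthase) and 2.33 (complex III).

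**Figure D3:**
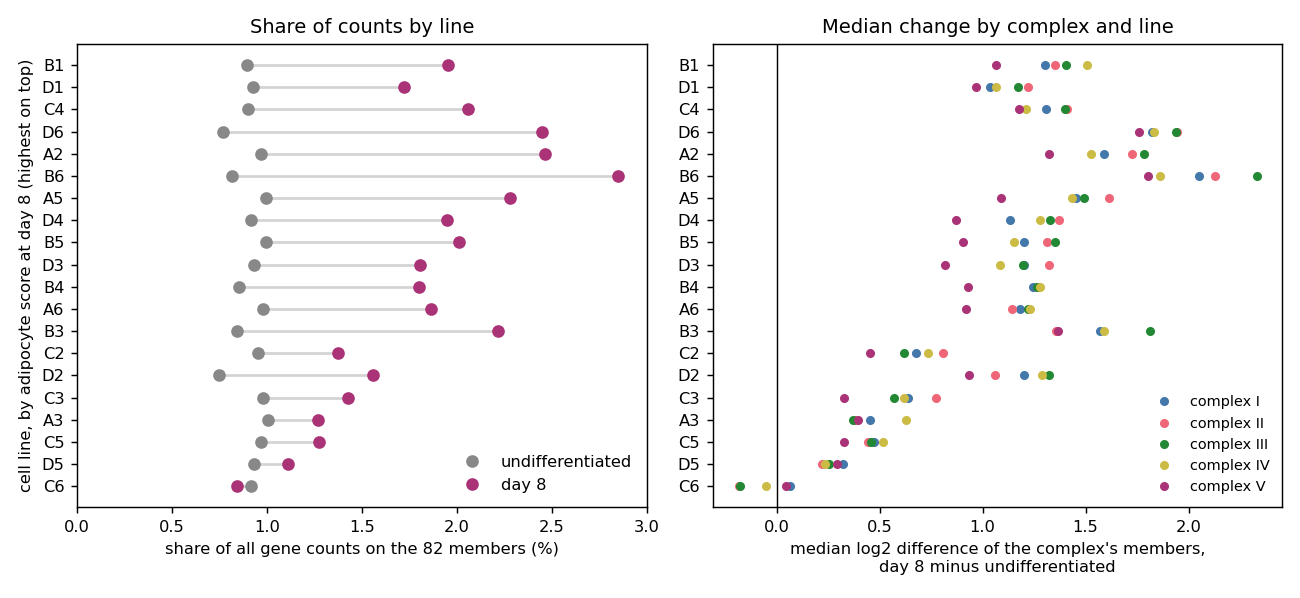
Left, share of all gene counts on the 82 members in each line before (grey) and at day 8 (purple). Right, median log2 difference of each complex in each line. Lines are ordered by the adipocyte score at day 8 with the highest on top, and C6 and D5 at the bottom show the smallest differences while B6 and D6 show the largest.

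Levels at day 8 were then set against how far each line had converted, measured as the mean log2 CPM of the 24 adipocyte genes, none of which is a member. The score was 3.9 in C6, 6.7 in D5 and between 7.92 and 9.34 in the 18 other lines. Within the day 8 files, 73 of 79 members were called higher in lines with a higher score, against 26.4% of 13248 tested genes. None was called lower in this edgeR fit, where 1 member, Cox6b2, had a negative slope at an unadjusted p under 0.05. Cox6b2 was called lower with limma-voom, and with edgeR under DESeq2 size factors or with Adipoq alone in place of the score. Without C6 and D5 its slope was 0.11. The median slope was a log2 change of 0.29 per unit of score, and 0.00862 over all genes. Without C6 and D5, 71 of 79 were called higher, against 18.7% of genes, and the median slope was 0.61. Lost calls were Cox4i2 and Ndufa4. The median slope was 0.28 for the 24 members with 10% or more shared sequence and 0.30 for the 55 others. The share of reads aligned to several places was 11% in C6 and 11.7% in D5, and between 11.7% (B4) and 14.8% (D4) in the 18 other lines. With that share as a second covariate 66 members were called higher, against 15.5% of genes, and the median slope was 0.20. Of 7 preadipocyte markers, 3 were lower and 1 was higher with the score, their sum running from 167 to 2588 CPM, and their part in the result was not tested.

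All 36 members of complex I, all 4 of complex II and all 8 of complex III were called, as were 12 of 14 of complex IV and 13 of 17 of the ATP synthase. Median slopes were 0.29, 0.37, 0.33, 0.30 and 0.23 for complexes I to V, and 0.64, 0.83, 0.65, 0.59 and 0.50 without C6 and D5. The calls with the smallest p were Ndufb7 with a slope of 0.27 (SE 0.03, adjusted p = 1.9e-06), Cox4i1 with 0.37 (SE 0.05, adjusted p = 3.95e-06) and Ndufa13 with 0.22 (SE 0.03, adjusted p = 8.62e-06). Ndufb7 had the smallest stage difference of complex I, and its day 8 level ran from 51.8 CPM in C6 to 146 CPM in A2. Sdha had a slope of 0.41 (SE 0.07, adjusted p = 0.000119) and Uqcrfs1 of 0.47 (SE 0.07, adjusted p = 4.23e-05). The members not called were Cox6b2, Cox7a2l, Atp5s, Atp5sl, Atp5g1 and Atp5g2. The first had a slope of -0.34 (SE 0.14, adjusted p = 0.0528). Cox7a2l, the supercomplex factor, had 0.15 (SE 0.07, adjusted p = 0.0732).

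**Figure D4:**
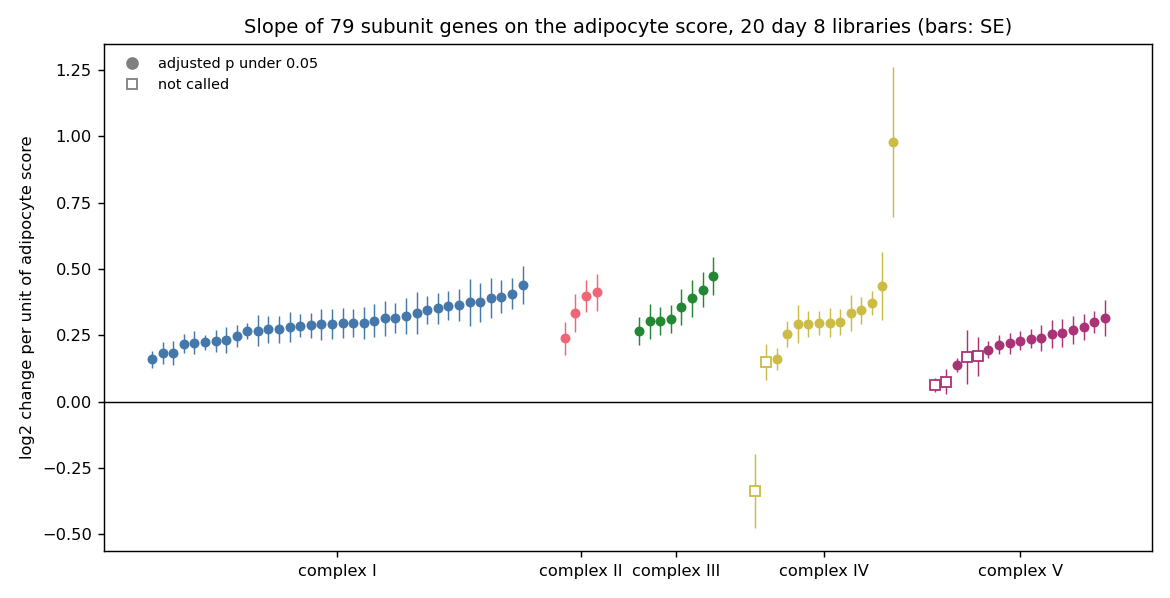
Slope of each tested member on the adipocyte score (log2 change per unit) in 20 day 8 libraries, ordered by size within each complex, with SE as bars. Filled circles are the 73 called members and open squares the 6 that were not called, namely Cox6b2 and Cox7a2l in complex IV and Atp5g2, Atp5g1, Atp5sl and Atp5s, from left to right, in the ATP synthase.

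Isoforms of a subunit, and Cox7a2 with its relative Cox7a2l, were compared directly through the log2 ratio of their levels within each day 8 library, for 7 pairs, with permutation p-values from 100000 resamples, two-sided and adjusted over the 7. The ratio of Atp5g3 to Atp5g2 was higher in lines with a higher score (r = 0.79, adjusted p = 7e-05; rho = 0.78, adjusted p = 0.00077; n = 20). It ran from 0.73 in C6 to 1.80 in C4, and without the lines farthest from the median score, C6 and D5, r was 0.704 (adjusted p = 0.00658). The unadjusted p of 1e-05 behind the first value is the smallest that the resamples can give. Atp5g2 itself lay between 103 and 167 CPM at day 8 with a slope on the score of 0.06 (SE 0.03, adjusted p = 0.0609), and Atp5g3 had a slope of 0.23 (SE 0.04, adjusted p = 6.45e-05). For Atp5g3 over Atp5g1, r was 0.701 (permutation adjusted p = 0.000245) and rho 0.651 (adjusted p = 0.00924), and without C6 and D5 r was 0.52 with an adjusted p of 0.0588. The ratio of Atp5g1 to Atp5g2 gave r = 0.0456 (adjusted p = 0.854) and rho = 0.0346 (adjusted p = 0.885), and r = 0.128 without C6 and D5. Atp5g1 and Atp5g2 share 10% or more of their sequence with processed pseudogenes and Atp5g3 none, and the part of this in the ratios was not tested.

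**Figure D5:**
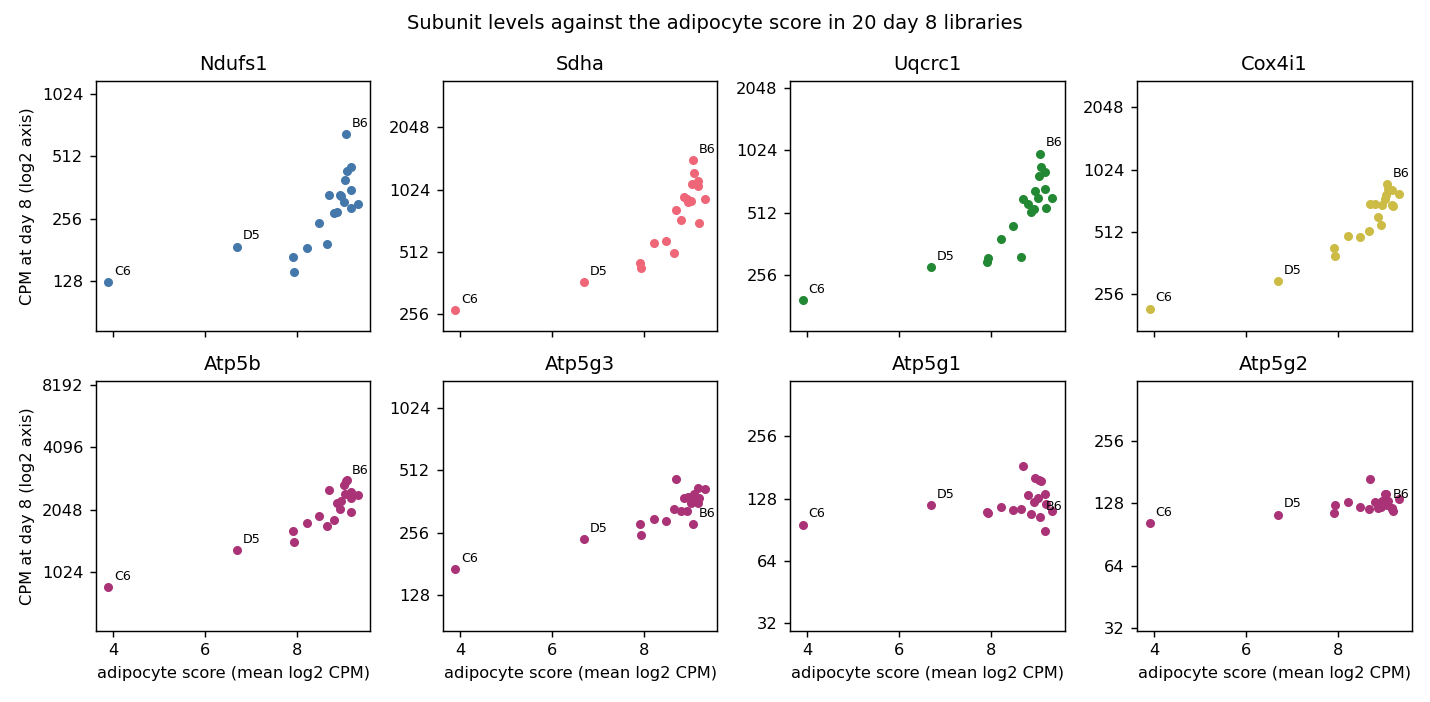
CPM at day 8 (log2 axis with the same span in every panel) against the adipocyte score (mean log2 CPM of 24 genes) for 8 members, 1 point per line, with C6, D5 and B6 labelled. Ndufs1, Sdha, Uqcrc1, Cox4i1, Atp5b and Atp5g3 climb from C6 to the lines with high scores, and Atp5g1 and Atp5g2, whose slopes were not called, lie between 89.6 and 183 and between 103 and 167 CPM.

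The complex IV pairs gave less stable relations. The ratio of Cox6a1 to the muscle form Cox6a2 had r = -0.357 (permutation adjusted p = 0.149) and rho = -0.526 (adjusted p = 0.0437). Without C6 and D5, r was -0.596 (adjusted p = 0.0313), that is, relatively more of the muscle form in the lines with higher scores among the 18. For Cox6b1 over Cox6b2, r was 0.666 (adjusted p = 0.0049) and rho 0.423 (adjusted p = 0.091), and r was 0.227 without C6 and D5, so the relation rests on those lines. The same holds for Cox7a2 over Cox7a2l, with r = 0.54 (adjusted p = 0.00779), rho = 0.427 (adjusted p = 0.091) and r = 0.176 without them. Cox4i1 over Cox4i2 gave r = -0.37 (adjusted p = 0.147), rho = -0.122 (adjusted p = 0.708) and r = 0.165 without them.

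Whether subunit RNA at day 8 went with Ucp1 at a given adipocyte score was tested with both as covariates. In 27 of 79 members the level was called higher with more Ucp1, against 2.08% of 13248 genes, and the median slope was a log2 change of 0.09 per unit of log2 Ucp1, with -0.00199 over all genes. The call rests on the lines richest in Ucp1: without B6, 1 member was called (0.153% of genes), and without B3, 8 of 78 tested (0.763%). With no filter on low counts, 16 were called (0.798%). With the share of reads aligned to several places as a further covariate, 1 member was called (0.151%). The median slope was 0.08 without B6, 0.09 without B3 and 0.07 with that covariate. Without C6 and D5, 25 members were called (1.93%) with a median slope of 0.07. The calls with the smallest p were Ndufb6, an accessory subunit of complex I, with a slope of 0.13 (SE 0.02, adjusted p = 0.00264), Cox5b with 0.15 (SE 0.02, adjusted p = 0.00402) and Ndufa12 with 0.10 (SE 0.02, adjusted p = 0.00596). Ndufb6 was the member still called without B6. It shares 34.4% of its sequence with other annotated genes.

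Whether lines kept their own level across both stages was tested as well, with few calls among the subunits. With the stage accounted for, 1 of 79 members differed between lines, against 28.7% of 14081 genes. It was Cox6b2, the testis form (adjusted p = 0.000156), with line C6 highest at 4.66 CPM before and 5.63 CPM at day 8. With limma-voom 7 were called (35.7%), and without C6 and D5 2 were called (22.3%). With 2 libraries per line this test has little precision, and its error includes the differing gains of the lines between stages. A member that was not called is therefore not shown to be equal between lines.

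Before induction, levels were tested against the adipocyte score that the same line reached later. Of 76 members tested, 6 were called, a share near the 7.69% called among 12409 genes. The members thus did not stand out as a group, and the genes below are given as single values. Ndufb11 (slope 0.10, SE 0.03, adjusted p = 0.0356) and Uqcrb (0.10, SE 0.03, adjusted p = 0.0487) were higher in lines that later scored higher. Sdhc (-0.15, SE 0.03, adjusted p = 0.00665), Ndufb3 (-0.13, SE 0.03, adjusted p = 0.00853) and Ndufs1 (-0.09, SE 0.03, adjusted p = 0.0342) were lower. Without C6 none was called by edgeR (1.09% of genes), with 12 at an unadjusted p under 0.05. Without D5 2 were called (2.05%), and without both lines none (0.0894%), with 3 at an unadjusted p under 0.05. With all 20 lines limma-voom called 6 (8.61%). With Adipoq alone in place of the score 4 were called (4.45%), all lower, so that neither Ndufb11 nor Uqcrb was among them, and with no filter on low counts 4 of 80 were called (4.4%).

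The factors that assemble the complexes were set against the same background, 43.1% of all tested genes called higher and 39% called lower between stages. Of 9 complex I assembly factors tested, 7 were called higher and 2 lower, with Ndufaf3 going from 4.94 ± 1.54 to 25.3 ± 7.82 CPM and Foxred1 from 33.9 ± 4.14 to 135 ± 54 CPM, whereas Ndufaf2 went from 15.4 ± 2.57 to 10.3 ± 2.33 CPM and Ndufaf4 from 58.3 ± 10.001 to 44 ± 16.2 CPM. Both of 2 complex II factors and all 3 complex III factors tested were called higher, the latter with a median log2 of 0.73. Of 11 complex IV factors, 6 were called higher and 5 were not called, from Cox19 at log2 0.05 (SE 0.07, adjusted p = 0.486) to Cox15, a haem A enzyme, at 1.28 (SE 0.09, adjusted p = 9.57e-16). For the ATP synthase, Atpaf1, Atpaf2 and the inhibitor Atpif1 were called higher and Tmem70 was not (log2 0.03, SE 0.11, adjusted p = 0.791). Atpif1 changed little, from 89.9 ± 11.5 to 97.7 ± 10.4 CPM (log2 0.12, SE 0.06, adjusted p = 0.0479).

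Among 16 genes of the mobile electron carriers and of coenzyme Q synthesis, 13 were called higher and 3 lower. Cycs, cytochrome c, went from 6.2 ± 0.60 to 219.6 ± 85.3 CPM (log2 5.15, SE 0.17, 10.1% shared, adjusted p = 2.07e-27), and Etfa, which passes electrons from fatty acid oxidation towards coenzyme Q, from 97.8 ± 9.78 to 464 ± 199.8 CPM. Coq10b and Pdss1, which makes the side chain of coenzyme Q, were lower at 36.1 ± 8.18 after 71.9 ± 13.7 CPM and 17.1 ± 4.3 after 27.3 ± 6.24 CPM. Of 5 subunits and isoforms outside the name patterns or set aside, Ndufab1 and Usmg5 were called higher. The others, Cox7a1, Cox8b and Ndufa4l2, had 123, 2 and 38 counts over all lines before induction. They passed the filter through the day 8 libraries, so their stage differences are given as values with no test. Cox7a1 went from 0.25 ± 0.106 to 50.6 ± 33.4 CPM and Cox8b from 0.00456 ± 0.014 to 4.82 ± 5.67 CPM. Ndufa4l2, a relative of Ndufa4 known to respond to low oxygen, went from 0.0793 ± 0.0469 to 32.1 ± 37.8 CPM. Of 13 mitochondrially encoded genes, mt-Nd4 is present in the files under the names searched, with 305 ± 33.1 and 421 ± 195 CPM (log2 0.47, SE 0.14, adjusted p = 0.00236).

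Of 6 carriers and uncoupling proteins tested, 3 were called higher and 1 lower. Ucp3, 1 of the 3, had 11 counts over all lines before induction and passed the filter through the day 8 libraries. Its stage difference is therefore given as values with no test. Ucp2 went from 1.74 ± 1.26 to 99.98 ± 51.3 CPM and Ucp3 from 0.023 ± 0.0325 to 5.11 ± 3.74 CPM, whereas the ADP/ATP carrier Slc25a4, which feeds the ATP synthase, went from 663 ± 117 to 529.8 ± 73.8 CPM (log2 -0.32, SE 0.07, adjusted p = 0.000122). Slc25a5, another ADP/ATP carrier with 60.9% shared sequence, was not called (log2 0.08, SE 0.09, adjusted p = 0.399). Of 13 regulators of mitochondrial biogenesis tested, 6 were called higher, 4 lower and 3 were not called, shares near those of all tested genes (43.1% and 39%). Ppargc1b, a coactivator of respiratory genes, went from 0.827 ± 0.663 to 36.1 ± 31.1 CPM, with C6 lowest at 2.2 and B6 highest at 125 CPM. Esrra, the oestrogen-related receptor α, had log2 1.20 (SE 0.15, adjusted p = 3.25e-09), and Tfb1m, a mitochondrial ribosomal RNA methyltransferase, 1.58 (SE 0.11, adjusted p = 2.07e-16). Pprc1, a coactivator of the same family as Ppargc1b, was lower in all 20 lines, at 38.6 ± 7.75 after 133 ± 12.7 CPM, and Gabpb1, the partner of Gabpa, at 33 ± 3.0 after 56.6 ± 4.99 CPM. Ppargc1a is listed at 0 in all 40 libraries, and whether the counting covered it is not known, so no level is given for it.

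Markers of other cells were summed in the same way. Over 6 endothelial genes the day 8 sum was 0.819 to 32.2 CPM, after 1.51 to 7.6, with 1 called higher (Tek) and Tie1 at or near 0. Over 7 immune genes it was 2.45 to 9.85 CPM, after 3.27 to 7.56, with Ptprc at no more than 0.127 CPM in any day 8 library. Csf1r went from 1.48 ± 0.855 to 0.498 ± 0.352 CPM. It did not pass the filter within the day 8 libraries, so these are values with no test. Emr1 is listed at 0 in all libraries, and whether the counting covered it is not known. For both lists the highest day 8 sum was that of C6. Their part in the results was not tested.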

How the data were processed

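Libraries were read as pairs of 100 bp, per the labels' protocols. The submitters' processing notes name STAR, HTSeq and build mm9. Annotation, versions and strand setting: not given in the sources used here. The deposited files hold raw counts per gene symbol, 1 library per file. Tallies that name no gene were left out of library sizes, and 125 symbols that differ from another only in letter case were left out, leaving 29787.

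Tests on these counts used edgeR 4.0.16 under R 4.3.3 (TMM scaling, filterByExpr with a minimum count of 10, quasi-likelihood F-test, Benjamini-Hochberg adjustment over all tested genes, threshold 0.05). The SE of a fold change is its size divided by the square root of F. Log2 CPM used a prior count of 2. Alternatives used limma 3.58.1, DESeq2 1.42.0, other scalings, no filter, and sets of lines left out. Stage was fitted over 40 libraries without a block. The same line gives 1 library to each stage and so pairs them, and deviations from the stage means correlated within a line at 0.0721 to 0.545 (median 0.402). For 14 of 20 lines the undifferentiated library correlated best with the day 8 library of its own line, and for the rest with that of another line. Each line has 1 library per stage, so p-values measure the spread between lines, with no separate cultures of a line.

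Shared sequence is the percentage of 31-base stretches of a gene's transcripts found in processed pseudogenes annotated in GENCODE M21 (GRCm38, not the authors' build), and lengths come from the same annotation. A limit of detection is 3 counts. The steps were tested on simulated data.

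The members and gene lists were chosen with earlier results of these data known. Named are, per complex, the 2 largest and 2 smallest stage differences, a set of core subunits, isoform pairs, untested members, the 3 covariate calls with the smallest p in each direction and the largest line differences. Up to 4 genes are named from each further list. Ndufs1 before induction, Ndufa4, Ndufb9, Ndufv3, Cox7c, Atp5h, Atp5s, Atp5sl, Cox7a1, Esrra, Gabpa, Ppargc1a and several marker genes were named after their values were seen. The values of 1 named item are not reported here.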

Additional observations from a re-analysis of the deposited data

How the results depend on the processing

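For the stage difference, 79 members were called higher under each alternative run: other scalings, DESeq2, limma-voom, no filter, without B6, and without C6 and D5. Between 35.7% (no filter) and 44.2% of all tested genes were called higher in these runs. The 79 include Cox4i2, Cox6a2 and Cox6b2, which passed the filter only through day 8 and whose calls carry no weight. With line as a replicate block 79 were called (paired analysis, median log2 1.08), and over all genes 12056 instead of 11562. Under the 4 scalings the median of all genes lay between -0.00259 and 0.08, so none moved it by 0.1. For the adipocyte score at day 8, between 66 and 73 members were called higher under the alternatives run, against 15.5% to 26% of genes. The test between lines gave 7 members with limma-voom and 2 without C6 and D5, in place of 1. The Ucp1 test gave 16 with no count filter, 1 with the share of reads aligned to several places as a further covariate, 8 without B3 and 1 without B6, in place of 27. Of the 6 members called before induction, 0 were left without C6, 2 without D5 and 0 without C6 and D5, and 4 were called with Adipoq alone or with no count filter. The cause of these changes was not tested. The fits without C6 alone, D5 alone or B3 and those with the share of multiply aligned reads were chosen after seeing the data. Depth limits Cox4i2, Cox6a2 and Cox6b2 before induction, where several libraries lie near 3 counts, and with 20 lines small slopes cannot be told from 0.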
